A study of Mus musculus with 12 samples.

Results

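A set of 10 genes that mark or govern blood stem and progenitor cells were followed through RNA-seq counts of mouse bone marrow cells: Kit, Flt3, Cd34, Procr, Meis1, Hoxa9, Mecom, Hlf, Myb and Sox4. They were chosen by symbol from what is known of these cells, out of 55291 gene symbols in the count table. The choice was made with earlier results of these data known. All 12 libraries came from marrow of mice of about 8 weeks, kept for about 24 hours in alpha-MEM, a culture medium, after which the cells that had not attached were harvested; the labels call them progenitors. Homozygous SCFA mice carried the STAT3C allele and received short-chain fatty acids (SCFAs), products of fibre fermentation by gut bacteria, in their drinking water. Control SCFA mice received the same water and are labelled only as control, with no alleles given. Homozygous untreated and control untreated mice received none. Each of these 4 groups had 3 libraries. The homozygous genotype is written STAT3Cstopfl/fl CD4Cre for 5 libraries and R26STAT3Cstopfl/fl CD4Cre for homozygous untreated 1; their titles name 1 genotype. STAT3C is a constitutively active form of the transcription factor STAT3, encoded in the Rosa26 locus and silent until a stop cassette is cut out. The CD4 promoter drives Cre mainly in T cells, and the labels do not say whether the marrow cells measured here carry the active protein. The labels do not tie libraries to individual mice, and p-values measure only the spread between libraries.

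Blood stem cells in the marrow self-renew and give rise to multipotent progenitors, which commit stepwise to lymphoid, myeloid, erythroid and megakaryocytic fates. Receptor tyrosine kinases on their surface receive survival signals from the marrow, and a small set of transcription factors holds the stem or progenitor state. Stem cells are rare in whole marrow, while later progenitors are far more abundant and keep some of the same genes, among them Kit, Cd34 and Myb.

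Sox4, Myb and Cd34 were the genes of the set with the most differences between groups, and their proximal promoters are shown for that reason. Each is the 250 bases before the RefSeq start on GRCm38.p6, read on the strand of the gene, with every CG dinucleotide in capitals. The Sox4 window is chr13:28953700-28953949 on the minus strand, the Myb window chr10:21160985-21161234 on the minus strand and the Cd34 window chr1:194938571-194938820 on the plus strand.
Sox4: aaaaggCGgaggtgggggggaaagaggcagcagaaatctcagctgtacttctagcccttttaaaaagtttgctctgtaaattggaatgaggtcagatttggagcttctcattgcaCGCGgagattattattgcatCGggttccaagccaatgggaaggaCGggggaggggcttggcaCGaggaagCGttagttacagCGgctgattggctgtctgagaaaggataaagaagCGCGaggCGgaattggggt
Myb: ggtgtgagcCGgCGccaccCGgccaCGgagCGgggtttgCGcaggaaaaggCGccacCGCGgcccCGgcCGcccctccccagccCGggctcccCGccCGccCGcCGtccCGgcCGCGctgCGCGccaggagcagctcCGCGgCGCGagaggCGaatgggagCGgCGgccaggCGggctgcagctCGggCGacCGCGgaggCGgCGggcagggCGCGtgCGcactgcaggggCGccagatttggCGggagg
Cd34: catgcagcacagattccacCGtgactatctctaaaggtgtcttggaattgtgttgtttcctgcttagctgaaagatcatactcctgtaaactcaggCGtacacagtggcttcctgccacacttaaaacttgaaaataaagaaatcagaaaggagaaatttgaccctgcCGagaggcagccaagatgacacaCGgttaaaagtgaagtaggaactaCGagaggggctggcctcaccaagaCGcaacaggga
The Myb window was 81.2% G and C and held 40 CG dinucleotides. The Sox4 window was 50.8% G and C with 11, and the Cd34 window 46.4% with 6, against medians of 52.4% and 6 over all 32851 mouse promoters of the RefSeq table. Promoters of all 10 genes were found there, Kit and Mecom with 2 starts each. The motif of STAT factors, TTCNNNGAA, was searched on both strands and was in none of them, against 7.02% of all promoters. The GATA motif AGATAA was also in none, against 9.99%. The interferon-stimulated response element was in 1 Mecom promoter, against 2.98% of all promoters, and the RUNX motif TGTGGT in that of Meis1, against 14.0%. A match describes letters in a window, and its lack says nothing of the factor.

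Library totals ranged from 16954355 to 20748995 counts, and 20101 to 22272 genes had a count. Untreated libraries are dated to day 1 and SCFA libraries to day 30 of month 3 in the labels, so SCFA and date cannot be told apart. Along the first principal component, with 24.7% of the variance, the homozygous SCFA libraries lay at 59.8 to 70.6, homozygous untreated libraries at 4.92 to 8.13, and control libraries of either treatment at -39.3 to -34.5. Along the second (17.8%), control untreated libraries 1, 2 and 3 were spread out, at 4.63, 87.4 and 41.5. Their difference in counts, as chi-square over degrees of freedom, was 84.8 between 1 and 2, 39.8 between 1 and 3 and 28.6 between 2 and 3. By that measure 2 and 3 were the closest pair. Values without control untreated 2, the highest on this component, follow for the members and for the counts of gene lists. The lists were not counted without control untreated 1. RNA of mature cells was abundant in cells labelled as progenitors. The 12 late neutrophil markers summed to 62429 to 73237 CPM (counts scaled to a common library size) in homozygous SCFA libraries, 60035 to 64769 in control SCFA, 59081 to 79051 in homozygous untreated and 37282 to 56450 in control untreated.

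The 10 genes covered a wide range of levels. As CPM per kilobase of exon (RPKM), Myb and Sox4 led in control untreated marrow with means of 13.2 and 12.6, followed by Cd34 (6.68), Kit (6.21) and Flt3 (5.22). The level of Sox4 is uncertain, since 54.6% of its exon overlaps a gene on the other strand and the strand setting is not given. Meis1, Hoxa9 and Hlf stood at 1.08, 0.860 and 0.532 RPKM. The receptors and progenitor factors, which later progenitors share, were above the genes most restricted to stem cells. Procr, the endothelial protein C receptor that marks long-term stem cells, had 0.128 RPKM and Mecom 0.0107 RPKM. In homozygous SCFA marrow the order was different: Kit came first at 7.40 RPKM, then Cd34 (6.69), Myb (5.70), Flt3 (3.47) and Sox4 (2.28).

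**Figure D1:**
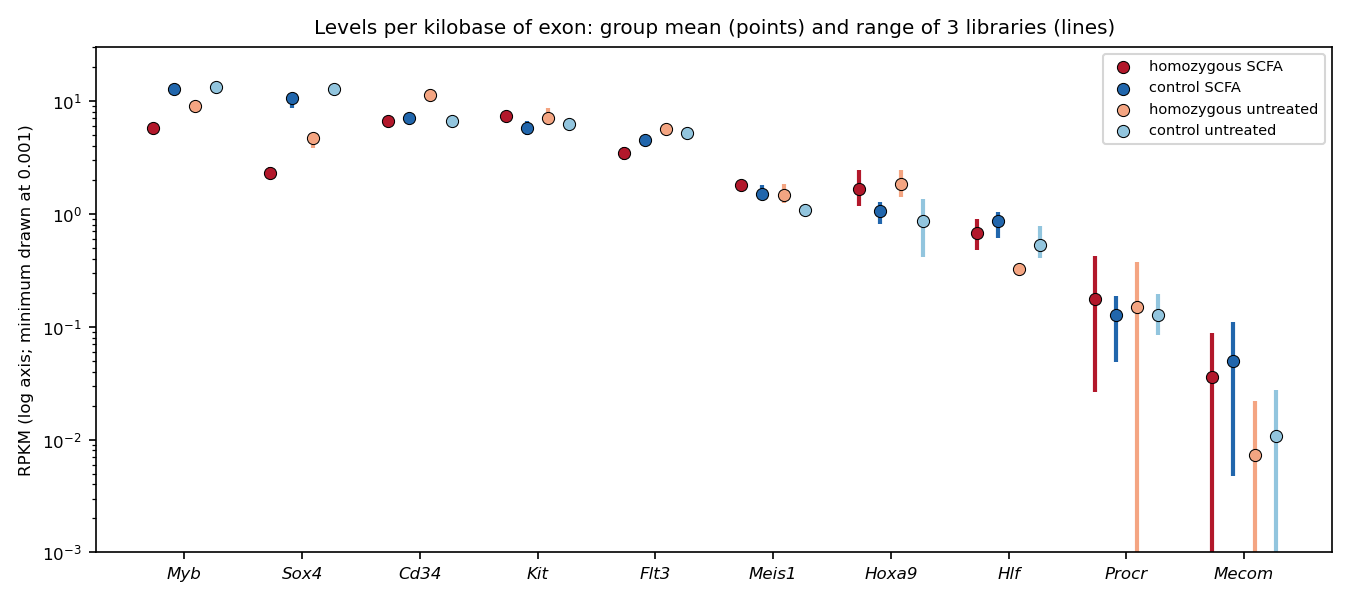
Level of each gene per kilobase of exon (RPKM, log axis), as group means (points) and the range over 3 libraries (lines), ordered by the control untreated mean. Myb and Sox4 led in both control groups at 10.6 to 13.2 RPKM, while Mecom and Procr stayed under 0.2 RPKM in the mean of every group.

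Mecom encodes EVI1, a zinc finger factor needed for stem cell upkeep. It had 0, 5 and 19 counts in the 3 homozygous SCFA libraries, 29, 8 and 1 in control SCFA, 5, 0 and 0 in homozygous untreated and 1, 0 and 7 in control untreated. Procr had 1, 3 and 15 counts in homozygous SCFA, 8, 2 and 5 in control SCFA, 14, 3 and 0 in homozygous untreated and 3, 4 and 8 in control untreated. Libraries of one group differed here as widely as the groups did, and neither gene passed the filter on low counts. No comparison called either gene: without the filter, their adjusted p ranged from 0.353 to 1 over the 5 comparisons. The other 8 genes were tested, and all counts of called genes refer to these 8.

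**Figure D2:**
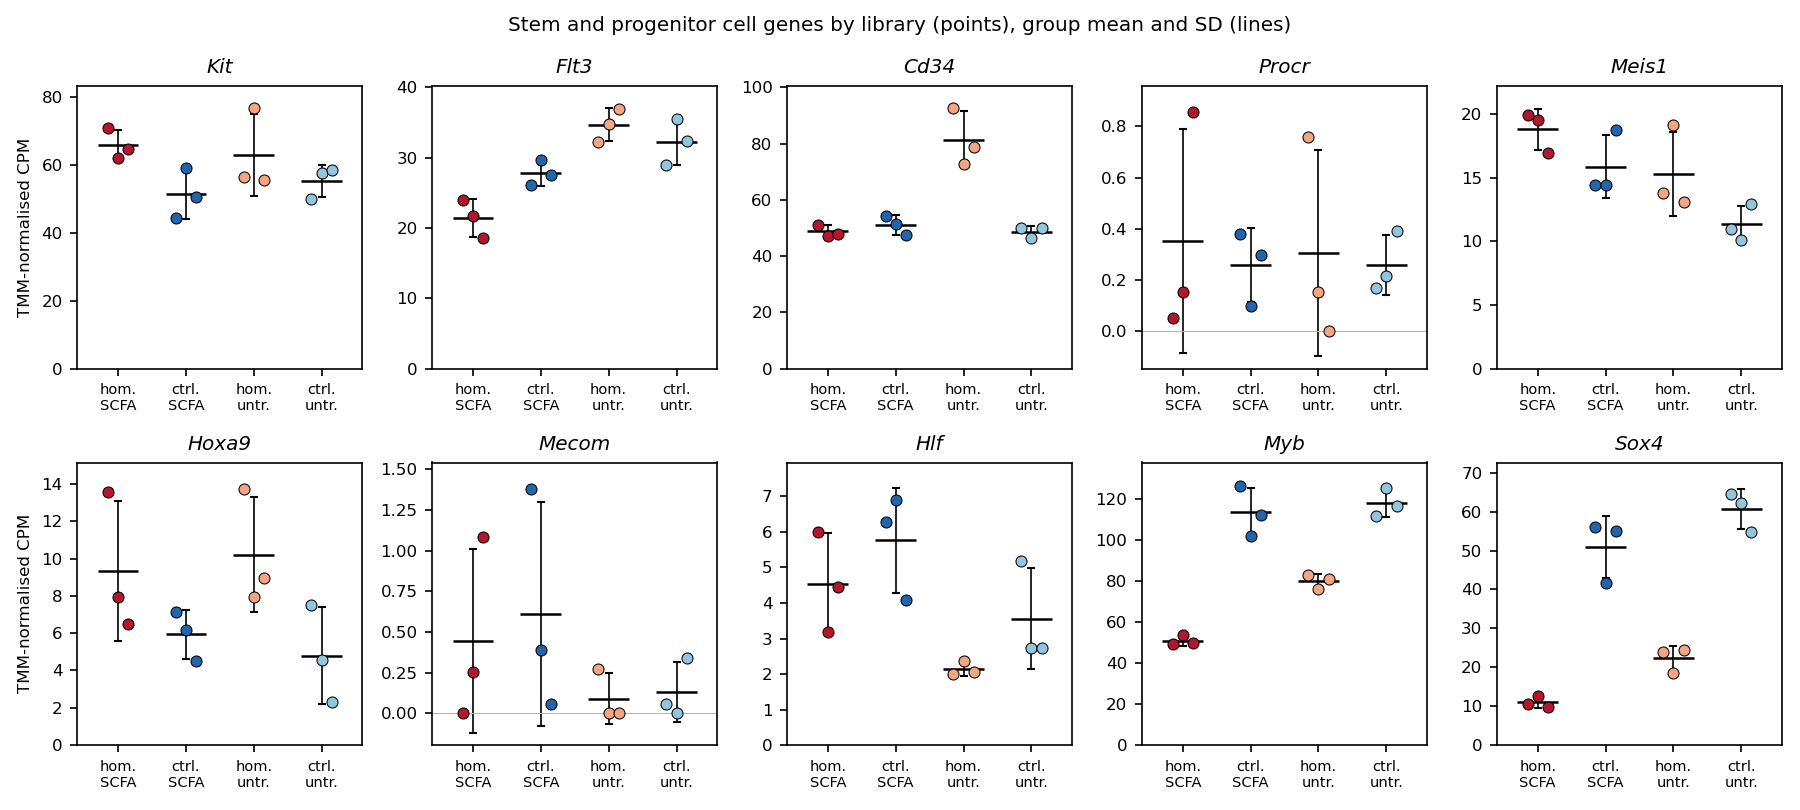
TMM-normalised CPM of each gene in the 3 libraries of each group (points), with the group mean and SD (lines). Sox4 and Myb were lower in every homozygous library than in any control library. The share of all tested genes that separate the genotypes over both treatments was not counted. Cd34 stood apart in the homozygous untreated libraries at 72.9 to 92.5 CPM.

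Without SCFA, homozygous marrow had less Sox4 and Myb and more Cd34 than control marrow. These 3 of 8 genes were called, 1 higher and 2 lower, at an adjusted p under 0.05, against a background of 14.8% of the 15674 genes tested (6.69% higher and 8.13% lower). Homozygous and control libraries did not overlap in 6 of the 8 genes, 3 above (Cd34, Meis1, Hoxa9) and 3 below (Hlf, Myb, Sox4), against 32.3% of all tested genes (14.7% above and 17.7% below). The groups overlapped in Kit and Flt3.

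Sox4, an HMG box factor of early lymphoid progenitors that pro-B cells need, had 24.0, 18.5 and 24.3 CPM in homozygous untreated libraries, against 64.6, 62.3 and 54.9 CPM in control untreated libraries. The highest homozygous library lay far under the lowest control library. Sox4 was 2.72-fold lower (log2 fold change -1.44 ± 0.17 SE, adjusted p = 9.64e-05). Myb, a factor that adult blood formation requires and that progenitors of most lineages express, had 83.0, 76.1 and 80.8 CPM in homozygous untreated, against 112, 125 and 116 CPM in control untreated. Its 3 homozygous libraries lay close together and under all controls, 1.47-fold lower (-0.56 ± 0.12, adjusted p = 0.00733). Without homozygous untreated 2 the adjusted p of Myb was 0.0534.

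Cd34, a sialomucin on the surface of many mouse progenitors, had 92.5, 72.9 and 78.9 CPM in homozygous untreated, against 49.8, 46.5 and 49.9 CPM in control untreated. All 3 homozygous libraries were above all controls, and Cd34 was 1.67-fold higher (log2 fold change 0.74 ± 0.13, adjusted p = 0.00192). Without control untreated 2 the changes of Sox4, Myb and Cd34 were -1.45, -0.54 and 0.68, with adjusted p of 2.86e-04, 0.0199 and 0.0103.

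Hoxa9, a homeobox factor of stem cells and early progenitors, had 13.7, 7.92 and 8.98 CPM in homozygous untreated and 7.53, 4.56 and 2.30 CPM in control untreated. The groups did not overlap, but the control libraries spread over a wide range, and the difference did not pass the test (1.09 ± 0.39, 95% interval 0.25 to 1.94, adjusted p = 0.0739). It passed with DESeq2 (adjusted p = 0.0382), limma-voom with quality weights (0.00568), no filter on low counts (0.00882), the replicate number as a block (0.0157) and without control untreated 1 (0.0135). Meis1, the homeobox partner of Hoxa9, had 13.8, 19.1 and 13.1 CPM in homozygous untreated and 11.0, 10.1 and 12.9 CPM in control untreated, and also missed the threshold (0.43 ± 0.20, adjusted p = 0.140). Hlf, a PAR bZIP factor tied to stem cell quiescence, had 2.01, 2.37 and 2.06 CPM against 5.19, 2.74 and 2.74 CPM in controls, also short of the threshold (-0.73 ± 0.36, adjusted p = 0.175).

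Kit, the receptor for stem cell factor, had 56.5, 77.0 and 55.6 CPM in homozygous untreated against 50.0, 57.6 and 58.5 CPM in control untreated (0.19 ± 0.15, 95% interval -0.14 to 0.52, adjusted p = 0.428). Flt3, the receptor for FLT3 ligand on multipotent and lymphoid progenitors, had 32.2, 34.8 and 36.9 CPM against 28.9, 35.5 and 32.3 CPM in controls (0.10 ± 0.15, adjusted p = 0.663). In neither receptor did the groups separate. Without control untreated 2, none of Hoxa9, Meis1, Hlf, Kit and Flt3 passed either, with log2 changes of 1.04, 0.33, -0.91, 0.19 and 0.15 and adjusted p of 0.195, 0.412, 0.183, 0.570 and 0.639.

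Markers of other cells differed between the same libraries. In counts of gene lists, here and below, genes that rose or fell are those called higher or lower at an adjusted p under 0.05. Of 16 B lineage markers, 13 fell and 0 rose in homozygous untreated marrow, and their summed level was 1181 to 1254 CPM, against 3282 to 3503 CPM in control untreated. Cd79b, which encodes a signalling subunit of the B cell receptor, changed by -1.66 on the log2 scale (adjusted p = 1.18e-06). None of the 16 was at 0 in either group. Of 9 measured mast cell and basophil markers 6 rose, and the 14 listed summed to 1356 to 1550 CPM against 956 to 1107 CPM, with the mast cell tryptase Tpsab1 at 0 counts in all 4 groups. The part of these cells in the levels of Sox4, Myb and Cd34 was not tested. In bulk RNA, fewer cells of a type and less RNA per cell cannot be told apart.

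Under SCFA, the genotypes differed most in Sox4 and Myb, both lower in homozygous marrow. They were 2 of the 8 genes called, both lower, against 17.4% of all tested genes (8.89% higher and 8.47% lower). Libraries did not overlap in 4 genes, 1 above (Kit) and 3 below (Flt3, Myb, Sox4), against a background of 39.5% (19.8% above and 19.8% below).

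Sox4 had 10.5, 12.5 and 9.86 CPM in homozygous SCFA libraries, against 56.0, 41.6 and 55.1 CPM in control SCFA libraries. The highest homozygous library lay far under the lowest control, and the fitted level was 4.64-fold lower (-2.22 ± 0.17, adjusted p = 6.02e-07). Myb had 49.2, 53.8 and 49.8 CPM in homozygous SCFA, against 126, 101.9 and 112 CPM in control SCFA. It was 2.23-fold lower with no overlap (-1.15 ± 0.12, adjusted p = 9.96e-06). Both calls held in all 19 alternatives, each library left out included.

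Flt3 had 24.0, 21.6 and 18.6 CPM in homozygous SCFA, against 26.1, 29.7 and 27.5 CPM in control SCFA. The groups did not overlap, and the difference missed the threshold (-0.37 ± 0.15, adjusted p = 0.0965) except with limma-voom (0.0181). Kit had 70.9, 62.2 and 64.9 CPM in homozygous SCFA and 44.5, 59.1 and 50.7 CPM in control SCFA. Its libraries did not overlap either, with an adjusted p of 0.128 (0.36 ± 0.15, 95% interval 0.03 to 0.69). Cd34, which differed without SCFA, had 51.2, 47.2 and 47.9 CPM in homozygous SCFA, against 54.4, 51.3 and 47.3 CPM in control SCFA. These values overlapped, and the interval of the log2 difference ran from -0.33 to 0.20 (adjusted p = 0.769).

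Meis1 had 19.9, 19.6 and 16.9 CPM in homozygous SCFA and 14.5, 14.4 and 18.7 CPM in control SCFA (0.25 ± 0.19, adjusted p = 0.420). Hoxa9 had 13.6, 7.92 and 6.50 CPM against 7.14, 6.18 and 4.51 CPM (0.65 ± 0.39, adjusted p = 0.279), and Hlf 6.01, 3.17 and 4.45 CPM against 6.28, 6.91 and 4.09 CPM (-0.35 ± 0.35, adjusted p = 0.543). In these 3 stem cell factors the groups overlapped.

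All 16 B lineage markers fell in homozygous SCFA marrow, where they summed to 374 to 425 CPM, against 3131 to 3251 CPM in control SCFA. Ebf1, a factor that commits progenitors to the B lineage, changed by -4.36 (adjusted p = 5.52e-11). The recombinase genes Rag1 and Rag2, which early B and T cells use, and the surrogate light chain gene Vpreb2 had 0 counts in all 3 homozygous SCFA libraries. Against a floor of 3 counts over the group, Rag1 was at least 1098-fold lower and Rag2 at least 759-fold lower than in control SCFA. Sox4 and Myb were measured in the same libraries, and the part of B lineage cells in their levels was not tested.

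**Figure D3:**
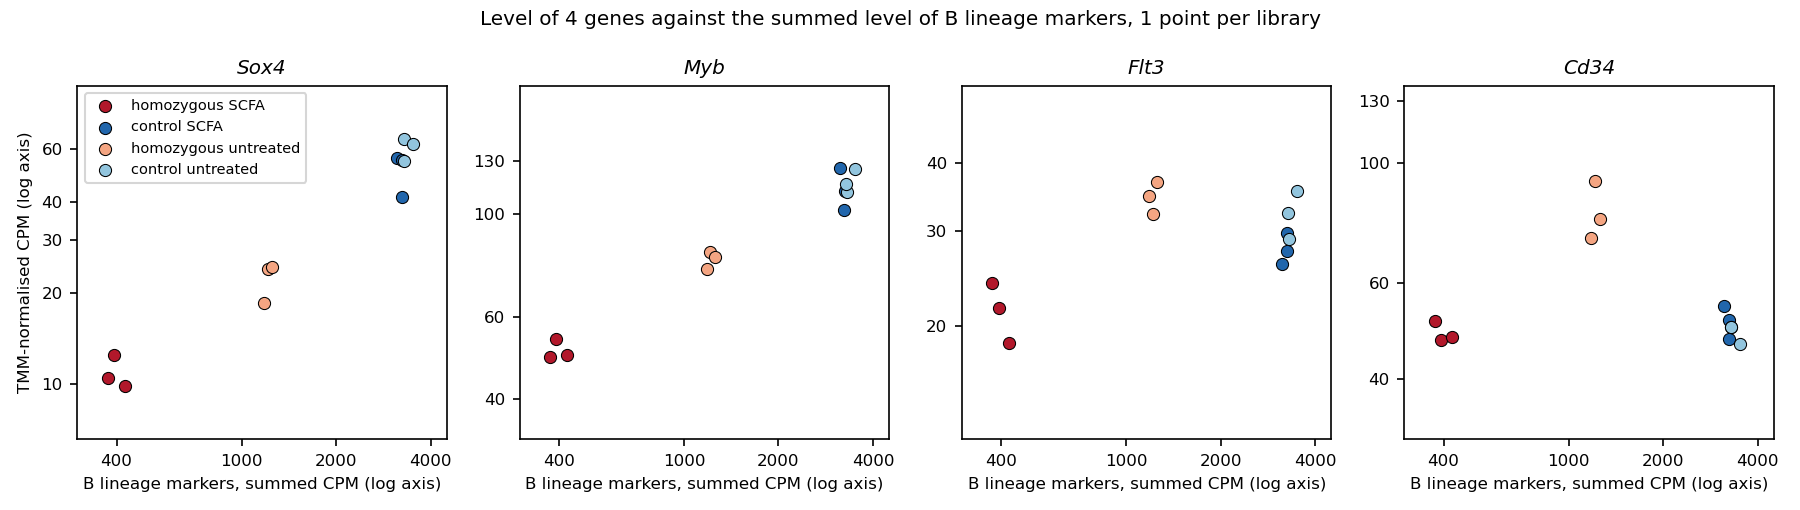
Level of Sox4, Myb, Flt3 and Cd34 (TMM-normalised CPM, log axis) against the summed level of 16 B lineage markers (CPM, log axis), 1 point per library coloured by group. Homozygous SCFA libraries have the lowest B lineage sums (374 to 425 CPM) and the lowest Sox4, Myb and Flt3, while Cd34 is highest in the homozygous untreated libraries, whose sums lie between those of the other groups.

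In control mice, SCFA was not followed by a called change in any of the 8 genes. edgeR called 0, against 21.9% of all tested genes, and 1 gene (Meis1) had an unadjusted p under 0.05, as did 36.6% of all tested genes. DESeq2 called 1 (Meis1, adjusted p = 0.0491) and limma-voom 1 (Hlf, 0.0328), and without control untreated 1 edgeR called Hlf (0.0477). Libraries did not overlap in 1 gene, Meis1, which was above at 14.5, 14.4 and 18.7 CPM in control SCFA against 11.0, 10.1 and 12.9 CPM in control untreated (0.48 ± 0.20, adjusted p = 0.0885), where 38.5% of all tested genes did not overlap (17.7% above and 20.8% below).

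The changes of the other genes in control mice were small or uncertain. Myb averaged 113 ± 12.1 CPM in control SCFA and 118 ± 6.86 CPM in control untreated (SD, n = 3 each), a log2 change of -0.05 ± 0.12. Cd34 averaged 51.0 ± 3.55 and 48.7 ± 1.95 CPM in the same groups (0.07 ± 0.12), and Sox4 50.9 ± 8.07 and 60.6 ± 5.10 CPM (-0.25 ± 0.16, adjusted p = 0.285). Kit changed by -0.11 ± 0.15 and Flt3 by -0.22 ± 0.15, with adjusted p of 0.666 and 0.306. Hlf averaged 5.76 ± 1.48 CPM in control SCFA and 3.56 ± 1.42 CPM in control untreated (0.70 ± 0.35, adjusted p = 0.162). Hoxa9 changed by 0.32 ± 0.40 (adjusted p = 0.604). Without control untreated 2 edgeR again called 0 of the 8, with log2 changes of 0.38 for Meis1, 0.52 for Hlf and 0.26 for Hoxa9, and between -0.26 (Sox4) and 0.00321 (Cd34) for the others (adjusted p 0.306 to 0.992).

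In homozygous mice, SCFA went with less Sox4, Cd34, Myb and Flt3. These 4 of 8 genes were called, all lower, against 9.58% of all tested genes called (3.96% higher and 5.61% lower). The libraries of these 4 did not overlap, and those of Hlf were all above, which makes 5 genes against a background of 30.1% (13.9% above and 16.2% below).

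Cd34 averaged 48.8 ± 2.13 CPM in homozygous SCFA and 81.4 ± 10.1 CPM in homozygous untreated (-0.74 ± 0.13, adjusted p = 0.00166). Control untreated marrow had 48.7 ± 1.95 CPM, a pair that was not tested. Sox4 averaged 11.0 ± 1.40 CPM in homozygous SCFA and 22.3 ± 3.26 CPM in homozygous untreated (-1.02 ± 0.17, adjusted p = 0.00153), and Myb 50.9 ± 2.54 and 80.0 ± 3.53 CPM (-0.65 ± 0.12, adjusted p = 0.00261). Both were lowest in the homozygous SCFA group. Flt3 averaged 21.4 ± 2.71 CPM in homozygous SCFA and 34.6 ± 2.35 CPM in homozygous untreated, 1.62-fold lower (-0.69 ± 0.15, adjusted p = 0.00876). Without homozygous SCFA 3, the adjusted p of Flt3 was 0.0534.

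Kit, Meis1 and Hoxa9 did not pass, with log2 changes of 0.07 ± 0.15, 0.29 ± 0.19 and -0.13 ± 0.38. Hlf averaged 4.54 ± 1.42 CPM in homozygous SCFA and 2.14 ± 0.194 CPM in homozygous untreated (1.08 ± 0.36, adjusted p = 0.0738). It passed with DESeq2 (adjusted p = 0.0464) and without control untreated 1 (0.0428).

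All 16 B lineage markers fell with SCFA in homozygous marrow (median log2 change -2.35), as did 9 of 22 S and G2/M cycle genes and all 11 erythroid markers. The summed level of the cycle genes was 2668 to 2808 CPM in homozygous SCFA and 3590 to 3709 CPM in homozygous untreated. That of the erythroid markers was 2474 to 2873 CPM against 9124 to 12275 CPM. No listed gene of the cycle or erythroid lists was at 0. The part of these cells in the levels of Sox4, Myb, Flt3 and Cd34 was not tested.

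**Figure D4:**
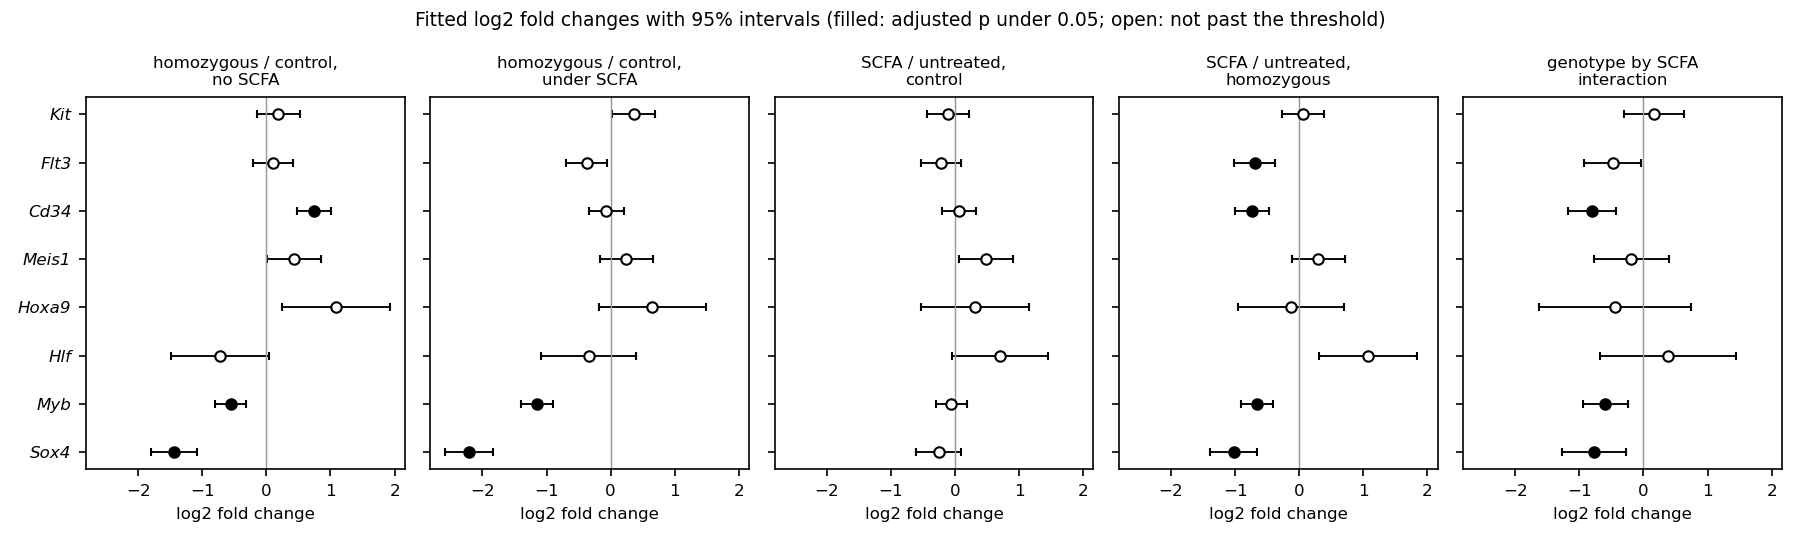
Fitted log2 fold changes (points) with 95% intervals (lines) of the 8 tested genes in 4 comparisons between groups and in the interaction; filled points passed an adjusted p under 0.05. Sox4 and Myb are filled in 4 of the 5 panels, and no gene is filled for SCFA in control mice.

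The interaction asks whether the change with SCFA differed between homozygous and control mice. It was called for 3 of the 8 genes, Cd34, Sox4 and Myb, against 25.1% of all tested genes (13.6% positive and 11.6% negative). In each the change was more negative in homozygous mice. For Cd34 the log2 change with SCFA was -0.74 in homozygous and 0.07 in control mice, a difference of -0.81 ± 0.18 (adjusted p = 0.00637). For Sox4 the changes were -1.02 and -0.25 and the difference -0.77 ± 0.24 (adjusted p = 0.0280). For Myb they were -0.65 and -0.05, a difference of -0.60 ± 0.16 (adjusted p = 0.0175). For Flt3 they were -0.69 and -0.22, and the difference of -0.48 ± 0.21 missed the threshold (adjusted p = 0.104), which it passed with DESeq2 (0.0469), limma-voom (0.0338) and without homozygous SCFA 1 (0.0459).

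The Cd34 interaction held in all 18 alternatives, with -0.73 (adjusted p = 0.0161) without control untreated 2; that of Myb was then -0.60 (0.0266). That of Sox4 was lost in 8 of 18, 7 of them with a single library left out (control untreated 2 or 3, homozygous untreated 1 or 3, control SCFA 1 or 3, or homozygous SCFA 3), with adjusted p of 0.0567 to 0.0957. That of Myb was lost in 4, among them without control untreated 3 (0.0538) and without homozygous untreated 3 (0.0642).

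The order of the groups differed between genes. Sox4 and Myb ran from homozygous SCFA (lowest) through homozygous untreated and control SCFA to control untreated, and control SCFA and control untreated were not called different in either. Flt3 was lowest in homozygous SCFA and highest in homozygous untreated, and of the 4 tested pairs of groups only these were called apart. Cd34 was highest in homozygous untreated, and the other 3 groups lay within 48.7 and 51.0 CPM. Meis1 and Kit were both highest in homozygous SCFA, at 18.8 ± 1.64 and 66.0 ± 4.45 CPM, and lowest in control untreated (11.3 ± 1.43 CPM) and control SCFA (51.5 ± 7.33 CPM), with no tested pair of groups called.

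Other regulators of stem cells were called at shares near those of all genes. Of 16 measured (20 listed), 0 rose and 2 fell in homozygous untreated against control untreated marrow, where 14.8% of all tested genes were called, with a median log2 change of -0.17 against -0.04 over all genes. Under SCFA 3 rose and 0 fell (median 0.10 against -0.02), where 17.4% of all genes were called. Egr1, an immediate early factor that restrains stem cell cycling, differed by -1.03 (adjusted p = 5.37e-05) without SCFA and by 0.64 (adjusted p = 0.00133) under SCFA, homozygous against control. Gata2, a factor of stem cells and of mast cells, averaged 35.6 CPM in homozygous SCFA, 17.9 in control SCFA, 18.7 in homozygous untreated and 26.3 in control untreated. Among SCFA libraries it was higher by 0.99 in homozygous than in control marrow (adjusted p = 0.00306). In control mice 2 rose and 2 fell with SCFA, against 21.9% of all genes called, and in homozygous mice 2 rose and 0 fell, against 9.58%.

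Surface genes of stem and multipotent cells were split. Of 17 measured, 4 rose and 3 fell in homozygous untreated marrow and 3 rose and 1 fell in homozygous SCFA marrow, each against the control with the same treatment. With SCFA, 6 rose and 1 fell in control mice and 3 rose and 2 fell in homozygous mice. Of all tested genes, 14.8% were called for genotype without SCFA, 17.4% under SCFA, 21.9% with SCFA in control mice and 9.58% in homozygous mice. Ly6a, which encodes the stem cell antigen Sca-1 and is also induced by interferons in many cells, averaged 146 CPM in homozygous SCFA, 172 in control SCFA, 343 in homozygous untreated and 90.7 in control untreated. It was higher by 1.92 in homozygous untreated marrow (adjusted p = 8.41e-07). Its interaction of -2.15 (adjusted p = 5.76e-06) had the sign of that of Cd34. Of the 17 surface genes, 2 were called with a positive and 5 with a negative interaction, against 13.6% and 11.6% of all tested genes. Vwf, von Willebrand factor, marks platelet-biased stem cells, megakaryocytes and endothelium. Its interaction was 1.80 (adjusted p = 9.32e-04), and it rose by 1.12 under SCFA between the genotypes (adjusted p = 0.00139). The list of 10 measured endothelial markers had 1 rise and 2 falls in that comparison, and 0 and 3 without SCFA. With SCFA, 0 rose and 0 fell in control mice and 2 rose and 1 fell in homozygous mice.

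Most ligands of stem cell receptors were scarce. Of 7 listed, 5 were measured, and edgeR called 1 in all 4 comparisons together: Angpt1, the ligand of the TIE2 receptor, higher by 1.47 with SCFA in control mice (adjusted p = 0.0101). Angpt1 was the most abundant of them, at 25.2 CPM in homozygous SCFA, 23.2 in control SCFA, 16.9 in homozygous untreated and 8.37 in control untreated. Of 16 HOXA, MEIS and PBX genes other than members, 5 were measured. Homozygous against control, 1 of them rose and 0 fell without SCFA, and 0 were called under SCFA. With SCFA, 1 rose and 0 fell in control mice and 0 were called in homozygous mice. Without control untreated 2, 0 were called for genotype without SCFA and 0 for SCFA in control mice. The median log2 change of this list was 0.07 without SCFA and 0.37 under SCFA, homozygous against control. With SCFA it was -0.08 in control mice and 0.32 in homozygous mice.

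Lists of committed progenitors were read in the same comparisons. The share of all tested genes called was 14.8% for genotype without SCFA and 17.4% under SCFA. With SCFA it was 21.9% in control mice and 9.58% in homozygous mice. Of 15 lymphoid progenitor genes, 1 rose and 5 fell without SCFA (median -0.59) and 1 rose and 8 fell under SCFA (median -0.81), homozygous against control. Tcf3, the E2A gene that early B cell development requires, changed by -1.79 without SCFA (adjusted p = 4.28e-04). With SCFA, 3 rose and 4 fell in control mice and 1 rose and 6 fell in homozygous mice. Of 16 granulocyte-monocyte progenitor genes, 2 rose and 2 fell without SCFA, and 10 rose and 0 fell under SCFA (median 0.53), homozygous against control. The receptor gene Csf1r was higher by 0.96 in homozygous SCFA than in control SCFA marrow (adjusted p = 0.00125). In control mice 0 of these rose and 7 fell with SCFA, among them Mpo, myeloperoxidase, by -0.91 (adjusted p = 0.00688). In homozygous mice 3 rose and 2 fell. Of 16 megakaryocyte-erythroid progenitor genes, 2 rose and 4 fell without SCFA, and 9 rose and 1 fell under SCFA (median 0.59), homozygous against control. With SCFA, 1 rose and 7 fell in control mice and 7 rose and 5 fell in homozygous mice.

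Genes that MYB is known to regulate were called in directions that differed between comparisons. Of 12 measured, 1 rose and 0 fell without SCFA (median -0.14), homozygous against control, where 14.8% of all tested genes were called. Under SCFA 2 rose and 3 fell between the genotypes (median -0.01), where 17.4% of all tested genes were called. Rag2 was among the falls and Elane, neutrophil elastase, rose by 0.73 (adjusted p = 0.00645). With SCFA, 1 rose and 2 fell in control mice, against 21.9% of all tested genes called. In homozygous mice 0 rose and 3 fell, against 9.58%. Of 22 S and G2/M cycle genes, 7 rose and 1 fell without SCFA and 1 rose and 3 fell under SCFA, homozygous against control. With SCFA, 3 rose and 6 fell in control mice. Cdk1, the mitotic kinase, rose by 0.57 in homozygous untreated marrow (adjusted p = 0.00781).

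Markers of other mature cells were read in the same way, homozygous against control. Of all tested genes, 14.8% were called in this contrast without SCFA and 17.4% under SCFA. Without SCFA, 8 monocyte markers rose and 1 fell of 12, and 4 late neutrophil markers rose and 1 fell of 12. Of 11 erythroid markers 7 fell, of 16 T cell markers 3 fell, of 15 dendritic cell markers 3 fell and of 8 stromal and osteoblast lineage markers 2 fell, and 0 rose in each of these lists. Under SCFA, 5 monocyte and 6 late neutrophil markers rose and 0 fell, 9 erythroid markers fell and 0 rose, and 0 stromal markers were called. T cell markers had 1 rise and 3 falls there, dendritic cell markers 3 rises and 5 falls, and mast cell and basophil markers 5 rises and 0 falls. Ccr9, a chemokine receptor of plasmacytoid dendritic cells and thymus-seeding progenitors, fell by 2.97 on the log2 scale (adjusted p = 1.51e-07). The T cell list summed to 103 to 108 CPM in homozygous SCFA, 119.5 to 142 CPM in control SCFA, 99.9 to 105 CPM in homozygous untreated and 147 to 170 CPM in control untreated.

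The same lists were counted between SCFA and untreated libraries, where SCFA and date coincide. Of all tested genes, 21.9% were called here in control mice and 9.58% in homozygous mice. In control mice, 7 erythroid, 2 T cell and 2 stromal markers fell and 0 rose, while 3 monocyte markers rose and 1 fell and 5 late neutrophil markers rose and 4 fell. Mast cell and basophil markers had 2 rises and 3 falls, dendritic cell markers 2 and 2, and B lineage markers 3 and 3. In homozygous mice, 4 monocyte markers rose and 2 fell, and 2 late neutrophil markers rose and 0 fell. Mast cell and basophil markers had 2 rises and 0 falls, dendritic cell markers 3 and 3, T cell markers 1 and 3, and stromal markers 1 and 0.

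Without control untreated 2, fewer genes passed the test in the comparisons that use its group, 5.36% of all genes for genotype without SCFA and 7.84% for SCFA in control mice, and the list counts were lower for most lists. For genotype without SCFA, 13 of 16 B lineage markers fell as before, 7 monocyte markers rose and 1 fell, 4 mast cell and basophil markers rose, and 5 erythroid and 4 lymphoid progenitor genes fell. In the same comparison 4 cycle genes rose and 0 fell, 1 stem cell regulator fell, 1 surface gene rose and 2 fell, 2 granulocyte-monocyte progenitor genes rose and 0 fell, and 2 megakaryocyte-erythroid progenitor genes rose and 1 fell. MYB targets had 1 rise and 1 fall, late neutrophil markers 2 rises and 0 falls, dendritic cell, T cell and stromal markers 2 falls each, and endothelial markers and receptor ligands 0 calls. For SCFA in control mice, 8 erythroid, 5 megakaryocyte-erythroid progenitor and 4 granulocyte-monocyte progenitor genes fell and 0 rose, and 6 surface genes rose and 0 fell. Stem cell regulators had 1 rise and 1 fall there, lymphoid progenitor genes 1 fall, MYB targets and cycle genes 2 falls each, and B lineage markers 1 rise and 1 fall. Mast cell and basophil markers had 1 rise and 2 falls, late neutrophil markers 1 and 2, dendritic cell markers 1 and 0, endothelial markers 1 and 0, T cell markers 0 and 1, stromal markers 0 and 2, receptor ligands 1 and 0, and monocyte markers 0 calls. The genes given above for one of these comparisons, Cd79b, Egr1, Ly6a, Tcf3, Cdk1, Angpt1 and Mpo, kept their calls in it, with adjusted p of 2.41e-06 (Cd79b) to 0.0461 (Angpt1). Without control untreated 1, more genes passed: 4333 against 2323 for genotype without SCFA and 5090 against 3432 for SCFA in control mice.

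**Figure D5:**
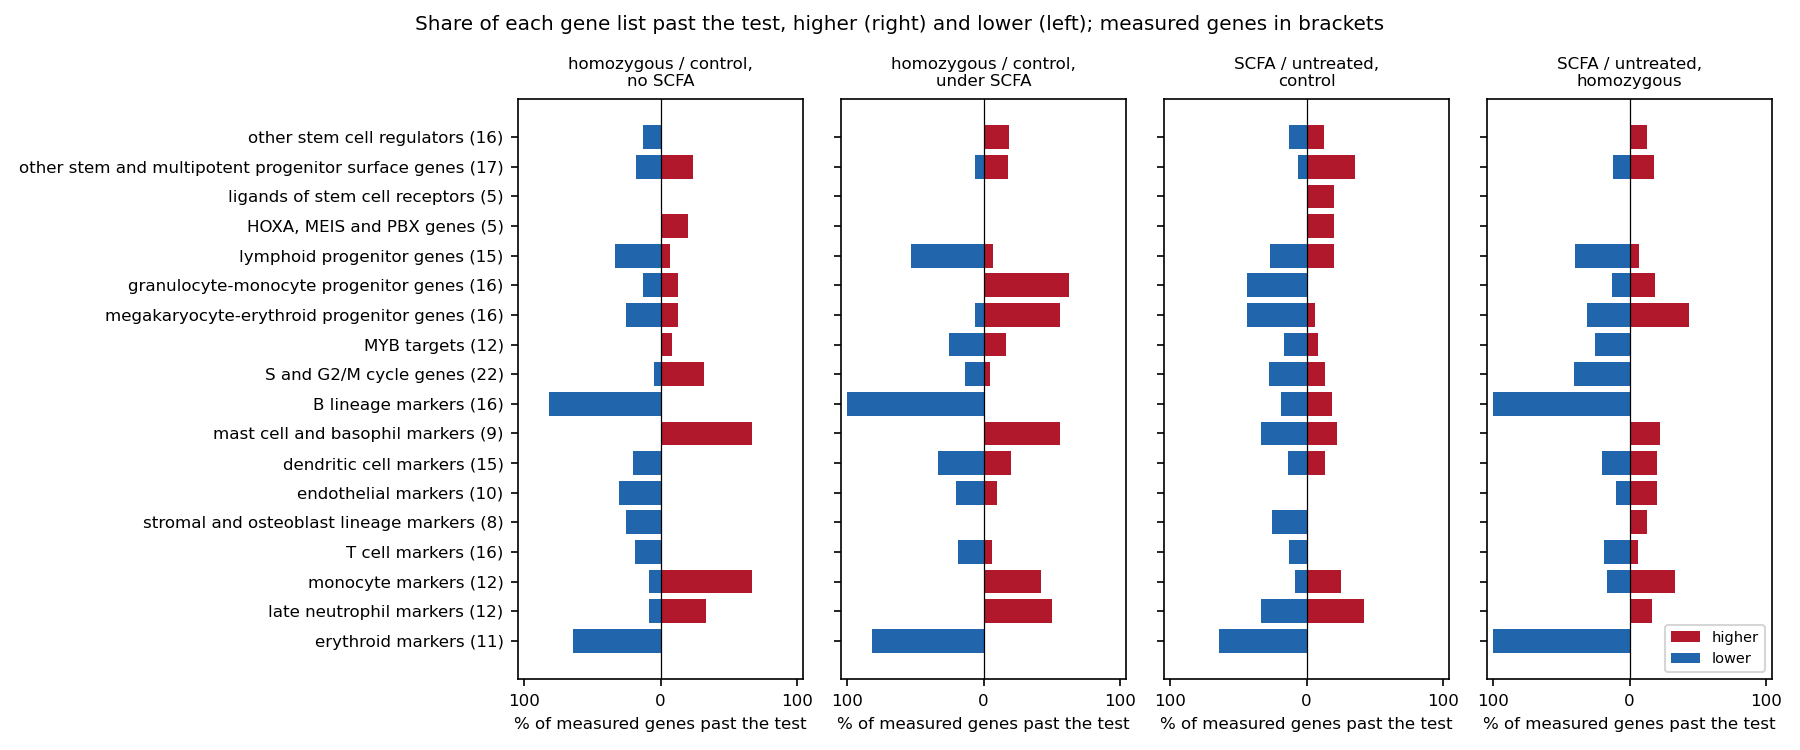
Share of the measured genes of each of 18 lists (number measured in brackets) that passed an adjusted p under 0.05, higher to the right and lower to the left, in 4 comparisons. B lineage markers fill the left side in both comparisons that involve homozygous SCFA marrow (16 of 16), while the stem cell lists are called in part and in both directions.

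For each tested member, the gene with the most similar course over the 12 libraries was sought among 9559 tested genes of at least 5 CPM, by the root mean square (RMS) difference of centred log2 CPM. For Sox4 this was Ighm, the immunoglobulin heavy constant mu gene (RMS difference 0.222), with 215 ± 18.3 CPM in homozygous SCFA, 1285 ± 11.2 in control SCFA, 521 ± 24.2 in homozygous untreated and 1460 ± 128 in control untreated. For Myb it was Txndc11 (0.140), with 56.3 ± 4.29, 120.9 ± 3.21, 81.0 ± 6.32 and 118 ± 17.9 CPM in the same order of groups. For Cd34 it was Ppa1, an inorganic pyrophosphatase (0.119), with 41.2 ± 0.487, 43.2 ± 3.09, 65.0 ± 3.46 and 38.7 ± 4.63 CPM. The other nearest genes were Frrs1 for Kit (0.112), Ilf2 for Flt3 (0.121), Lyst for Meis1 (0.135), Lifr for Hlf (0.248) and Fam98b for Hoxa9 (0.303). Likeness over these libraries was a description only, since all genes of a library share its RNA and depth.

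On mm10, with the GENCODE M21 annotation, all 10 were protein-coding. Sox4 lay at chr13:28948919-28953713 on the minus strand as a single exon, and 54.6% of it overlapped the lincRNA Gm26735 on the other strand. The counts of Gm26735 were not looked up. Since no strand setting of the counting is given, how reads in the shared part were counted is not known. Myb lay at chr10:21124935-21160984 (minus), with 6.26% of its exons overlapping the antisense gene Gm26577, which had at most 40 counts in a library. Cd34 lay at chr1:194938819-194961279 (plus), with 2.03% overlapping the antisense gene Gm16897, which had at most 42 counts. The remaining genes lay at chr5:75574916-75656722 (Kit, plus), chr5:147330741-147400489 (Flt3, minus), chr2:155751117-155755471 (Procr, plus), chr11:18879817-19018985 (Meis1, minus), chr6:52223100-52231089 (Hoxa9, minus), chr3:29951296-30548008 (Mecom, minus) and chr11:90336536-90390895 (Hlf, minus).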

How the data were processed

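RNA was measured in 12 libraries, 3 in each of 4 groups. The authors deposited whole-number counts of each gene symbol in each library, raw and not normalized. The submitters' processing notes name STAR, featureCounts and the build mm10. Versions, annotation and strand setting of these steps are not given in the sources. The labels name a Qiagen RNeasy Plus Micro extraction and a Clontech low-input poly(A) library protocol.

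Of 55291 symbols, 22077 had 0 counts in every library. The test was the quasi-likelihood F test of edgeR 4.0.16 (R 4.3.3), with TMM factors (0.947 to 1.10) and the filterByExpr filter by group. It ran on 15674 genes in all 12 libraries with 4 group means. A gene was called when its Benjamini-Hochberg adjusted p, over all tested genes, was under 0.05. The standard error was taken as the log2 fold change over the root of F. CPM were computed from the deposited counts over the TMM-scaled library, and RPKM by dividing them by the GENCODE M21 exon union. The totals limit precision to a floor of 3 counts, 0.143 to 0.178 CPM per library, which covers counting error only. Replicates differed by more than sampling noise (chi-square over degrees of freedom 11.6 to 84.8), so each was counted as 1 library.

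The members and the 18 gene lists were chosen with earlier results of these data known. Named genes are the members, the nearest gene of each tested member and, from each list and comparison, at most 2 called genes with the smallest p, of which the text gives a part. The values of 1 gene that this rule names are left out. Vpreb2 and Tpsab1 were named after their values were seen. Lists are described by counts and medians, with no test of the list. Promoter sequences are those of RefSeq on GRCm38.p6, and all 10 members matched by symbol. The procedure was tested on simulated counts. Alternatives were RLE factors, total counts only, no low-count filter, DESeq2 1.42.0, limma-voom 3.58.1 with quality weights, fits on only the groups compared, a block for the replicate number, and leaving out each library. Tables and figures were made with pandas 2.3.3 and matplotlib 3.10.9 in Python 3.11.15.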

Additional observations from a re-analysis of the deposited data

Results flagged for a closer look

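In 3 genes the change with SCFA differed between the genotypes by the test of the difference itself, the interaction in edgeR's quasi-likelihood fit, in which 25.1% of all tested genes were called. The difference, homozygous minus control, was -0.81 for Cd34, -0.60 for Myb and -0.77 for Sox4 on the log2 scale. In all 3 the homozygous SCFA libraries lay below all homozygous untreated libraries, as in 16.2% of all tested genes. Control SCFA and control untreated libraries overlapped in all 3, while 38.5% of all tested genes did not overlap there. These positions come from the same values as the interaction and add no support to it. The Sox4 interaction was lost in 8 of 18 alternatives and that of Myb in 4. SCFA and the label date cannot be told apart in either genotype. Single libraries that stand apart were not sought gene by gene, since each group holds 3.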

How the results depend on the processing

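The 40 log2 fold changes of the 8 tested genes were recomputed as 752 alternative values, of which 714 kept their direction and their side of the threshold, 14 lost a call, 15 gained one and 9 changed sign. With total counts only, interaction calls among the members were 1, against 3, and with limma-voom they were 5. SCFA in control mice gave 1 call with DESeq2 and 1 with limma-voom, against 0. With single libraries left out, member calls ranged from 2 to 4 for genotype without SCFA, were 2 throughout for genotype under SCFA, and ranged from 0 to 1 for SCFA in control mice (1 without control untreated 1), from 3 to 5 for SCFA in homozygous mice and from 1 to 4 for the interaction (1 without control untreated 3 or without homozygous untreated 3). The causes were not tested. The values that changed sign belonged to changes that were not called. With total counts only they were Flt3 for genotype without SCFA (-0.0482) and Cd34 for SCFA in control mice (-0.0364). With 1 library left out, values for SCFA in control mice ranged from -0.0427 (without control untreated 3) to 0.759 for Hoxa9, from -0.218 to 0.00173 (without control SCFA 1) for Kit and from -0.134 to 0.0363 (without control SCFA 2) for Myb. For SCFA in homozygous mice they ranged from -0.0186 (without homozygous SCFA 1) to 0.232 for Kit, also negative at -0.00765 without homozygous untreated 1. Hoxa9 ranged there from -0.531 to 0.150 (without homozygous untreated 1), also positive at 0.0848 without homozygous SCFA 3.

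Calls over all genes, the background of each comparison, moved more. For genotype without SCFA they were 2323, but 770 without homozygous untreated 2, 888 without homozygous untreated 1, 883 and 1109 without control untreated 2 and 3, 4333 without control untreated 1, 914 with only the groups compared and 3922 with limma-voom. Under SCFA the genotype calls were 2722, but 1512 and 1585 without homozygous SCFA 2 and 3, 1738 and 1431 without control SCFA 2 and 3, and 4762 with limma-voom. For SCFA in control mice they were 3432, but 1697 and 613 without control SCFA 2 and 3, and 2035 with only the groups compared. They were 5090, 1292 and 1935 there without control untreated 1, 2 and 3. For SCFA in homozygous mice they were 1501, but 762 and 743 without homozygous SCFA 2 and 3, 883 and 797 without homozygous untreated 1 and 2, 2310 with DESeq2 and 2988 with limma-voom. For the interaction they were 3938, but 2455 without homozygous SCFA 2, 2478 without control SCFA 3 and 2579 without homozygous untreated 2. With total counts only, genotype without SCFA gave 632 higher and 2087 lower, against 1048 and 1275, with the median of all genes at -0.18 against -0.04. SCFA in control mice gave 914 and 2422 against 1393 and 2039 (median -0.07 against 0.04), and the interaction 2435 and 1352 against 2125 and 1813 (median 0.05 against -0.08). Same-numbered libraries did not deviate together (correlations of deviations -0.114 to 0.0432), so the numbers were not taken as pairs. With the replicate block, member calls were 4 for genotype without SCFA, 2 for genotype in SCFA mice, 0 for SCFA in control mice, 4 for SCFA in homozygous mice and 3 for the interaction. Mecom and Procr had at most 29 counts in a library and ranged widely within groups.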
